A study of Rattus norvegicus with 14 samples.

Results

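The report concerns 7 Krüppel-like factor genes, Klf2, Klf4, Klf5, Klf6, Klf9, Klf10 and Klf15, chosen by symbol among the 17312 genes measured by RNA sequencing of rat aortic smooth muscle cells. All 7 had a row in both deposited tables and all 7 passed the filter on low values that left 10133 genes for testing. The cells, bought from a commercial supplier, were kept without serum for 24 h, and the groups differ in what followed. In the JQ1 plus PDGF groups, cells received JQ1 at 500 nM for 3 h and then platelet-derived growth factor (PDGF) at 925 ng/ml, the concentration given in the labels, for 2 h (n = 3) or 24 h (n = 3). In the PDGF groups, cells received PDGF alone for 2 h (n = 3) or 24 h (n = 3). Unstimulated cells were collected at 0 h (n = 2). JQ1 displaces BET bromodomain proteins, readers of acetylated histones that support transcription, and PDGF is a mitogen known to turn cultured smooth muscle cells away from the contractile state. JQ1 without PDGF and unstimulated cells at 2 h or 24 h were not analysed here, so PDGF cannot be told apart from time in culture in any comparison with 0 h. The labels do not state whether replicates are separate cultures, so the p-values describe the spread of these libraries, and part or all of it may be technical. Titles use the letters A to D without JQ1 and E to H with it, so the meaning of the letters, which no label gives, cannot be separated from JQ1.

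Krüppel-like factors are transcription factors that bind GC-rich and CACCC sequences through zinc fingers near the end of the protein. In vascular smooth muscle, KLF4 is known as a repressor of contractile genes that PDGF induces, and KLF5 as a factor induced in the injured vessel wall. KLF2 is best known as a flow-induced gene of endothelium, KLF6 as an early response gene of injury, KLF10 as a gene induced early by transforming growth factor beta, and KLF9 and KLF15 as targets of the glucocorticoid receptor.

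Libraries are named by group and by the digit that ends their column name. Between 9901 and 11503 genes were above 0 in a library, and the number of reads is unknown because the values are FPKM, that is, fragment numbers corrected for the length of the transcript and for sequencing depth. Levels below are normalised FPKM, in which an unnormalised 0 reads 0.0885 to 0.111. Differences are log2 of the normalised FPKM plus 1, a scale that understates changes of low genes, with the standard error (SE) of a limma fit over all 14 libraries and a Benjamini-Hochberg adjusted p, and a gene was called when that p was under 0.05. On this scale the median of all tested genes was itself shifted, by 0.41 for PDGF at 24 h against unstimulated cells, by -0.29 for JQ1 at 2 h and by -0.48 for JQ1 at 24 h. A median-centred scale, in which unnormalised FPKM are divided by size factors, lacks that shift and is given where it changes a call or a direction. Spike-ins held 2.531 to 2.783% of a library's unnormalised FPKM at 0 h. With PDGF they held 1.822 to 2.285% at 2 h and 1.652 to 1.882% at 24 h. With JQ1 plus PDGF they held 2.332 to 2.476% at 2 h and 2.205 to 2.589% at 24 h. At 2 h of PDGF the share was below that at 0 h, while the median shift was only 0.009. What these shares say about the median shifts was not tested, and neither scale is taken as the correct one.

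The smooth muscle markers summed to 16677 to 16992 unnormalised FPKM with JQ1 plus PDGF at 2 h, 10857 to 11496 with PDGF at 2 h, 385 to 450 with JQ1 plus PDGF at 24 h, 1265 to 1510 with PDGF at 24 h and 10018 to 10416 in unstimulated cells. Acta2 and Tagln made up most of each sum and were present in all 14 libraries. With JQ1 plus PDGF at 24 h Smtn measured 19.3 to 25.1 unnormalised FPKM, against 47.1 and 48.9 in unstimulated cells. In the same JQ1 libraries Cnn1 measured 6.005 to 8.65, Lmod1 0.607 to 0.978, Myh11 0.213 to 0.530 and Myocd 0.0169 to 0.0951 unnormalised FPKM. Des, at most 1.09 in any library, measured 0.143 to 0.247 there. Of the 8 endothelial markers, Cdh5 was at 0 in all 14 libraries and Pecam1 in 12, and the list summed to at most 10.3 unnormalised FPKM in any library. Of the 6 leukocyte markers, Ptprc and Aif1 were at 0 in all 14 libraries, while Cd14 measured 3.82 to 52.9 and Cd68 up to 12.5 unnormalised FPKM. Of the 6 fibroblast markers with a row, Dpt and Ly6c were at 0 in all 14 libraries, while Lum measured 3.54 to 119 and Pdgfra 0.672 to 18.97 unnormalised FPKM. A value of 0 can be a failed estimate in these files, since the kinase gene Mapk7 was also listed at 0 in all 14 libraries. In bulk RNA, fewer cells of a type and less RNA per cell cannot be told apart.

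The promoters of Klf6 and Klf9 are shown because both genes rose with PDGF at 2 h and then differed in opposite directions with JQ1 at 24 h, as described below. RefSeq promoter windows (assembly GRCr8, 250 bases before to 50 after the annotated start) matched 5 of the 7 genes by symbol. Klf2 and Klf10 had no entry. The windows of Klf4 and Klf15 do not begin at the start of the gene record and are not shown, and the window of Klf5 held 1 match, to TGACG, the core of the cyclic AMP response element. Klf6 lies at chr17:69458429-69458728 on the minus strand and Klf9 at chr1:230126396-230126695 on the plus strand, and capitals mark the motif matches found by searching both strands.
Klf6: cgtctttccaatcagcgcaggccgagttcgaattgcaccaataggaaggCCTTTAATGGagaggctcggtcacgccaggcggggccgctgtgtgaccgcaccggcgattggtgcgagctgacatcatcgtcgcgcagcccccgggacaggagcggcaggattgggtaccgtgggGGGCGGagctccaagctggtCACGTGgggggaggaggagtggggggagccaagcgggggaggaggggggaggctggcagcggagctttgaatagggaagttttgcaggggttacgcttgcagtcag
Klf9: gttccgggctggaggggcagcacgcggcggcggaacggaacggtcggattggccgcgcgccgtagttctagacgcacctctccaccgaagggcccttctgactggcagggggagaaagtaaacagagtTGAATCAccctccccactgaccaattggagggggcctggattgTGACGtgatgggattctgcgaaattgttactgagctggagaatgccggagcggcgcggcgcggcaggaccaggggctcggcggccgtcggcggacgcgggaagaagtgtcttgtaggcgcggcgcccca
The Klf6 window holds 1 CArG box, the binding motif of serum response factor, with its first base 201 bases before the start, 1 GC box (GGGCGG) and 1 E-box (CACGTG). Among all 33469 promoter windows of this length, 1.64% hold a CArG box, 33.1% this GC box and 6.42% this E-box. The Klf9 window holds 1 match, TGAATCA, to TGANTCA, a loose form of the AP-1 motif that allows any base at its centre. This loose form is present in 7.33% of all windows. The Klf9 window also holds 1 core of the cyclic AMP response element (TGACG, 21.2%). Searches for the CACCC box (CCACCC), the TATA box (TATAAA), a glucocorticoid response core (TGTTCT) and the MEF2 box found no match in either window, and no 2 matches within them overlap. The match is of letters only. The GC content was 64.7% for Klf6 and 65.3% for Klf9, against a median of 51.7% over all windows.

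With PDGF at 2 h all 7 genes were called against unstimulated cells, 5 higher and 2 lower, and Klf15 fell furthest. The calls of 4 (Klf4, Klf6, Klf10 and Klf15) held in every alternative fit. Without unstimulated replicate 0 the number called was 4. Over all tested genes 30.4% were called, 17.7% higher and 12.7% lower. The largest rises were those of Klf10, Klf4 and Klf6. The group ranges did not overlap for any of the 7 genes, which held for 50.6% of all tested genes.

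Klf4, the repressor of contractile genes, measured 9.53 and 7.83 normalised FPKM in unstimulated cells, 32.1, 31.0 and 38.2 with PDGF at 2 h, and 15.2, 11.3 and 10.2 with PDGF at 24 h. Every 2 h library stood above every other library of this course. The log2 difference at 2 h against 0 h was 1.85 ± 0.17 (SE; limma adjusted p = 5.23e-07). At 24 h against 0 h it was 0.44 ± 0.17 (limma adjusted p = 0.0423), close to the median shift of 0.41, and on the median-centred scale it was 0.03 (limma adjusted p = 0.919). Klf4 at 24 h was thus above unstimulated cells on the normalised scale alone.

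Klf5, which is known to activate the PDGF A chain gene, was the lowest of the 7 in unstimulated cells. It measured 0.387 and 0.349 normalised FPKM in unstimulated cells, 2.99, 0.946 and 1.60 with PDGF at 2 h, and 0.966, 0.434 and 0.406 with PDGF at 24 h. The 2 h libraries were widely spread, with replicate 0 the highest, and all 3 lay above both unstimulated libraries. The unnormalised FPKM were 3.51, 0.319 and 1.62 with PDGF at 2 h, against 0.300 and 0.283 in unstimulated cells. Replicate 1 of PDGF 2 h was thus barely above the unstimulated libraries before normalisation. The difference at 2 h against 0 h was 0.99 ± 0.31 (limma adjusted p = 0.0243). It was no longer called on the median-centred scale (limma adjusted p = 0.0715), in a fit of the groups compared alone (0.131), or without PDGF 2 h replicate 0, unstimulated replicate 0 or unstimulated replicate 1 (0.0852 to 0.111), and over all 21 alternatives the adjusted p ran between 0.00317 and 0.131. At 24 h against 0 h the difference was 0.21, with a 95% interval of -0.45 to 0.87 (limma adjusted p = 0.608).

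Klf6, the early response gene, was the highest of the 7 in every group. It measured 27.4 and 34.0 normalised FPKM in unstimulated cells, 86.8, 92.3 and 105.0 with PDGF at 2 h, and 31.5, 34.0 and 38.3 with PDGF at 24 h. The rise at 2 h was 1.60 ± 0.14 (limma adjusted p = 3.64e-07), and the 24 h libraries overlapped the unstimulated ones. At 24 h against 0 h the difference was 0.17 (95% interval -0.12 to 0.47; limma adjusted p = 0.337), and on the median-centred scale it was -0.27 (limma adjusted p = 0.0458), the opposite sign.

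Klf10, the TGF-beta induced gene, measured 3.59 and 5.82 normalised FPKM in unstimulated cells, 24.8, 20.5 and 22.7 with PDGF at 2 h, and 15.1, 13.6 and 16.9 with PDGF at 24 h. All 6 PDGF libraries lay above both unstimulated libraries. The difference was 2.08 ± 0.20 at 2 h (limma adjusted p = 1.29e-06) and 1.53 ± 0.20 at 24 h (limma adjusted p = 3.03e-05). Klf10 was the only member of the 7 called higher at 24 h on both scales.

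Klf2, the flow-induced gene of endothelium, measured 7.03 and 7.01 normalised FPKM in unstimulated cells, 3.46, 4.85 and 3.94 with PDGF at 2 h, and 9.36, 10.3 and 8.78 with PDGF at 24 h. It was lower at 2 h by a log2 difference of -0.67 ± 0.18 (limma adjusted p = 0.0131), and the early and late libraries lay on opposite sides of the unstimulated pair. The call at 2 h was lost in a fit of the groups compared alone (limma adjusted p = 0.139) and without either unstimulated library (0.0799 without replicate 0 and 0.0679 without replicate 1), within a range of 0.00302 to 0.139 over 21 alternatives. At 24 h against 0 h the difference was 0.38 (95% interval -0.01 to 0.78; limma adjusted p = 0.105) and -0.02 on the median-centred scale.

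Klf9 and Klf15, the genes of this set known as glucocorticoid receptor targets, moved in opposite directions at 2 h. Klf9 measured 8.88 and 12.1 normalised FPKM in unstimulated cells, 17.8, 21.1 and 23.2 with PDGF at 2 h, and 12.0, 16.0 and 15.4 with PDGF at 24 h. Its rise at 2 h was 0.92 ± 0.20 (limma adjusted p = 0.00246), and without unstimulated replicate 0 it was 0.72 (limma adjusted p = 0.0596), within a range of 0.000835 to 0.0596 over 21 alternatives. The difference at 24 h against 0 h was 0.43 (95% interval 0.01 to 0.85; limma adjusted p = 0.0898). It was called when replicate 1 of PDGF 2 h and replicate 0 of PDGF 24 h were both left out (0.55; limma adjusted p = 0.0474, within a range of 0.0474 to 0.976 over 21 alternatives).

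Klf15 measured 15.8 and 12.0 normalised FPKM in unstimulated cells, 0.412, 0.406 and 0.349 with PDGF at 2 h, and 6.35, 5.73 and 3.53 with PDGF at 24 h. The 2 h values were near the level that an unnormalised 0 takes, and the unnormalised FPKM there were 0.405, 0.0953 and 0.263. Its log2 difference at 2 h was -3.41 ± 0.26 (limma adjusted p = 7.74e-08), the 9th lowest of the 10133 genes tested. At 24 h it was -1.28 ± 0.26 (limma adjusted p = 0.0012), so Klf15 remained below unstimulated cells in 3 of 3 libraries.

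**Figure D1:**
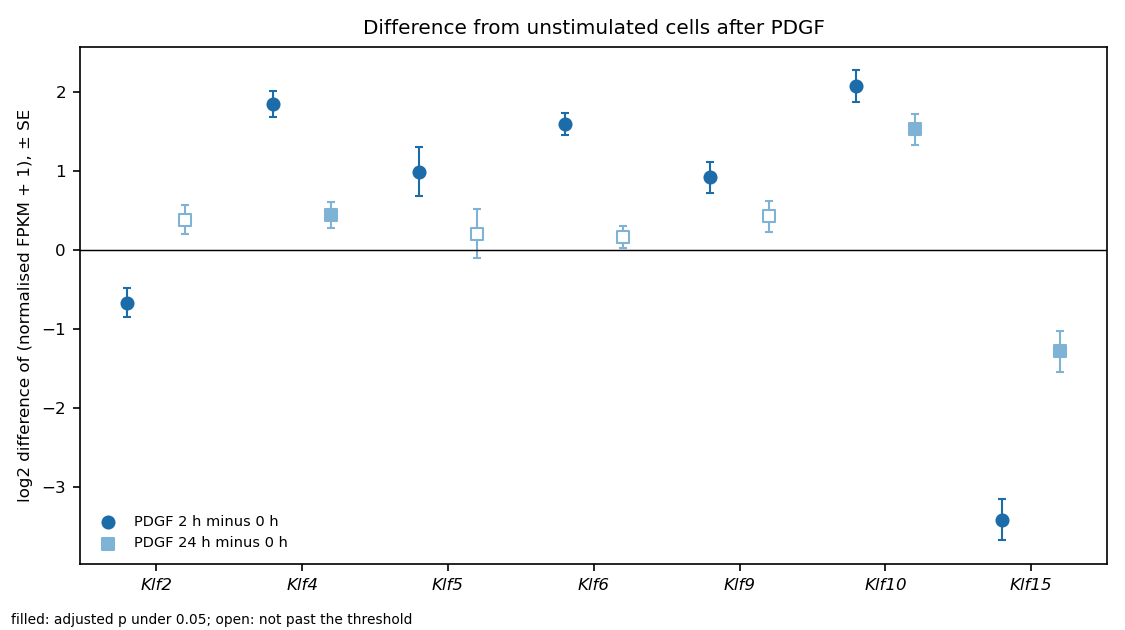
Log2 differences of (normalised FPKM + 1) with bars of 1 SE for PDGF at 2 h and at 24 h against unstimulated cells, for the 7 genes, filled where the limma adjusted p is under 0.05. Klf10 lies at 2.08 at 2 h and 1.53 at 24 h, Klf15 at -3.41 and -1.28, and Klf2 below 0 at 2 h and above it at 24 h.

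At 24 h against 0 h the calls were 3, with Klf10 and Klf4 higher and Klf15 lower, against 42.6% of all tested genes called in either direction, 37.7% higher and 4.85% lower. Ranges were apart for 5 of the 7 genes and for 70.3% of all tested genes. The median difference of the 7 genes was 0.38, near the 0.41 of all tested genes. On the median-centred scale the 3 calls were 1 higher (Klf10) and 2 lower (Klf15 and Klf6), against 14.8% of all genes higher and 13.4% lower. The call of Klf4 was also lost without any 1 of 8 libraries (both unstimulated libraries, PDGF 24 h replicates 0 and 1, JQ1 plus PDGF 2 h replicates 1 and 2, and JQ1 plus PDGF 24 h replicates 1 and 2), where the adjusted p was 0.0512 to 0.267, and over all 21 alternatives it ran between 0.0241 and 0.919.

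Between 2 h and 24 h of PDGF all 7 genes moved back toward the unstimulated level or past it. At 24 h against 2 h, Klf15 was higher by 2.13 ± 0.23 and Klf2 by 1.05 ± 0.16, while Klf6 fell by 1.43, Klf4 by 1.40, Klf5 by 0.78, Klf10 by 0.55 and Klf9 by 0.49 on the log2 scale. All 7 passed the test, against 56.3% of all tested genes in either direction, where 44.5% were called higher and 11.8% lower. The median of all tested genes was shifted by 0.395 here, and was 0.0455 on the median-centred scale. On that scale 2 were called higher and 5 lower too. The differences were 0.70 for Klf2, -0.87 for Klf9 (limma adjusted p = 0.000243) and -0.93 for Klf10 (limma adjusted p = 0.000437). Libraries were left out on the normalised scale only. Group ranges were apart for 6 of the 7 (59.6% of all genes) and overlapped for Klf5. The calls of Klf5 (without PDGF 2 h replicate 0 or PDGF 24 h replicate 1 or 2, limma adjusted p 0.0766 to 0.136), Klf9 (without PDGF 2 h replicate 1 or 2 or PDGF 24 h replicate 0, 0.0501 to 0.119) and Klf10 (without PDGF 2 h replicate 0 or PDGF 24 h replicate 1, 0.0595 to 0.0697) rested on single libraries. Over their 21 alternatives the adjusted p ran between 0.00243 and 0.136 for Klf5, 0.000243 and 0.166 for Klf9, and 0.000437 and 0.0697 for Klf10.

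The comparison of JQ1 plus PDGF with PDGF asks how the levels differ when BET proteins are inhibited. It shares its PDGF libraries with the comparisons above, so the values of a gene in both are not independent of each other.

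**Figure D2:**
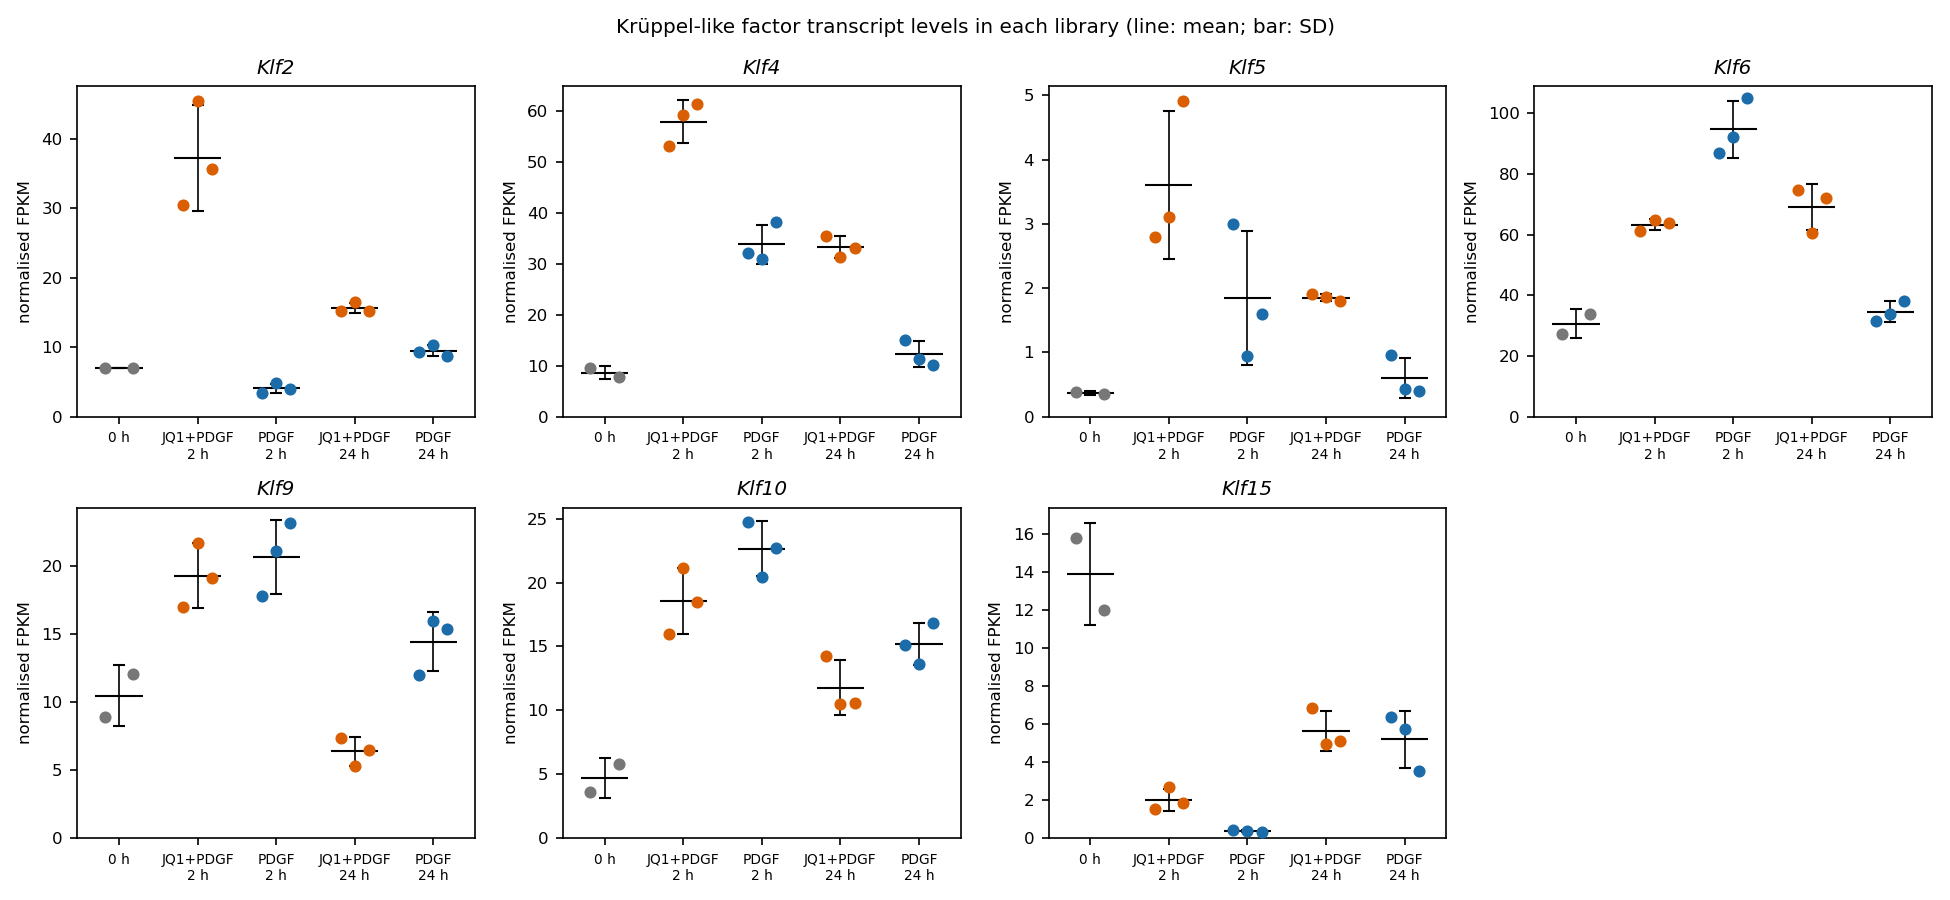
Normalised FPKM of the 7 genes in each of the 14 libraries, with 1 panel a gene, 1 point a library, a line at the group mean and bars of the SD. Klf2 is highest with JQ1 plus PDGF at 2 h (30.4 to 45.5), Klf6 with PDGF at 2 h (86.8 to 105.0) and Klf15 in unstimulated cells (12.0 to 15.8).

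JQ1 at 2 h raised Klf2 more than any other member. Klf2 measured 30.4, 45.5 and 35.7 normalised FPKM with JQ1 plus PDGF, against 3.46, 4.85 and 3.94 with PDGF. The means differed 9.10-fold and the JQ1 and PDGF libraries lay far apart. The log2 difference was 2.90 ± 0.16 (limma adjusted p = 1.28e-08), the 9th highest of the 10133 genes tested. The markers of endothelial cells, in which Klf2 is known to be expressed, summed to 0.607 to 1.65 unnormalised FPKM in the same JQ1 libraries. With PDGF the sum was 1.94 to 10.3, and Cdh5 was at 0 in all of these libraries. Most of each sum came from Erg, at 0.607 to 1.48 with JQ1 plus PDGF and 1.41 to 10.03 with PDGF. The cell source of the Klf2 transcripts was not tested.

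Klf4 was also higher with JQ1 at 2 h, at 53.1, 59.2 and 61.3 normalised FPKM, against 31.0 to 38.2 with PDGF. Its difference was 0.76 ± 0.15 (limma adjusted p = 8.14e-04). Klf15 measured 1.52, 2.68 and 1.83 with JQ1 plus PDGF, against 0.349 to 0.412 with PDGF. Klf15 was thus higher with JQ1 plus PDGF than with PDGF (difference 1.10 ± 0.23; limma adjusted p = 0.00157). Every JQ1 library still lay below both unstimulated libraries. Klf6 was lower with JQ1, at 61.2, 64.7 and 63.8 against 86.8 to 105.0 with PDGF (difference -0.57 ± 0.12; limma adjusted p = 0.00191).

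Klf5 measured 2.79, 3.10 and 4.91 normalised FPKM with JQ1 plus PDGF at 2 h, against 0.946 to 2.99 with PDGF, and these ranges overlapped. Its difference of 0.73 ± 0.28 (limma adjusted p = 0.0463) was no longer called in 14 of 21 alternatives, over which the adjusted p ran between 0.00893 and 0.194. The 14 include the removal of any 1 of 11 libraries, all except JQ1 plus PDGF 2 h replicate 0, PDGF 2 h replicate 0 and PDGF 24 h replicate 0, with an adjusted p of 0.0518 to 0.194. Klf9 (17.0 to 21.7 with JQ1 plus PDGF, 17.8 to 23.2 with PDGF) and Klf10 (16.0 to 21.1 and 20.5 to 24.8) did not pass the test. The 95% interval of the difference was -0.47 to 0.28 for Klf9 and -0.66 to 0.10 for Klf10, and both differences changed sign on the median-centred scale (0.22 and 0.04).

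Of the 7 genes, 5 were thus called between JQ1 plus PDGF and PDGF at 2 h, against 41.3% of all tested genes in either direction. The 4 called higher stand against 7.24% of all genes called higher, and the 1 called lower against 34.0%. On the median-centred scale the split of the 7 was the same 4 and 1, while 20.1% of all genes were called higher and 21.5% lower. Ranges were apart for 4 of the 7 genes and for 47.1% of all tested genes.

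JQ1 at 24 h gave Klf4, Klf6, Klf5 and Klf2 above the PDGF level and Klf9 below it. Klf4 measured 35.5, 31.3 and 33.1 normalised FPKM with JQ1 plus PDGF, against 15.2, 11.3 and 10.2 with PDGF, a difference of 1.39 ± 0.15 (limma adjusted p = 1.39e-06). Klf6 measured 74.8, 60.5 and 72.2, against 31.5, 34.0 and 38.3 with PDGF, a difference of 0.98 ± 0.12 (limma adjusted p = 8.73e-06). The JQ1 libraries of both genes stood wholly above the PDGF libraries, by means that differed 2.72-fold for Klf4 and 2.00-fold for Klf6.

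Klf2 measured 15.3, 16.5 and 15.2 normalised FPKM with JQ1 plus PDGF at 24 h, against 9.36, 10.3 and 8.78 with PDGF (difference 0.67 ± 0.16; limma adjusted p = 0.00306). Klf5 measured 1.90, 1.86 and 1.80, against 0.966, 0.434 and 0.406 with PDGF (difference 0.85 ± 0.28; limma adjusted p = 0.0172). The Klf5 call was lost without PDGF 24 h replicate 1 or 2 (limma adjusted p 0.0562 and 0.0588), within a range of 0.00331 to 0.0588 over 21 alternatives. In both genes every JQ1 library exceeded every PDGF library.

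Klf9 was the only one of the 7 called lower with JQ1 at 24 h in the fit of all libraries. It measured 7.39, 5.30 and 6.50 normalised FPKM with JQ1 plus PDGF, against 12.0, 16.0 and 15.4 with PDGF. Its difference was -1.06 ± 0.18 (limma adjusted p = 1.16e-04), and it held its call in all 21 alternatives. Klf10 measured 14.3, 10.5 and 10.6, against 15.1, 13.6 and 16.9 with PDGF, a difference of -0.35 (95% interval -0.73 to 0.03; limma adjusted p = 0.115) that was 0.16 on the median-centred scale. Without JQ1 plus PDGF 24 h replicate 0, Klf10 was called lower (-0.49; limma adjusted p = 0.0416, within a range of 0.0416 to 0.464 over 21 alternatives). Klf15 measured 6.84, 4.96 and 5.10, against 6.35, 5.73 and 3.53 with PDGF, a difference of 0.12 (95% interval -0.38 to 0.61; limma adjusted p = 0.696). On the median-centred scale Klf15 was higher with JQ1 by 0.64 (limma adjusted p = 0.00813).

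The 5 calls between JQ1 plus PDGF and PDGF at 24 h stand against 53.1% of all tested genes called in either direction. The 4 called higher stand against 4.61% called higher, and Klf9 against 48.5% called lower. With median centring 5 were called higher and 1 lower, against 23.1% and 25.8% of all genes. Ranges were apart for 5 of the 7 genes and for 64.4% of all tested genes. With JQ1 plus PDGF at 24 h the adventitial fibroblast markers summed to 6.10 to 8.44 unnormalised FPKM, against 95.7 to 115.4 with PDGF. The leukocyte markers summed to 9.57 to 17.3 against 36.9 to 53.0. Of the 6 leukocyte markers, Cd14 was lower with JQ1 (4.16 to 4.63 against 36.0 to 52.9 unnormalised FPKM) and Cd68 higher (5.37 to 12.5 against 0 to 0.851). Their part in these results was not tested.

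**Figure D3:**
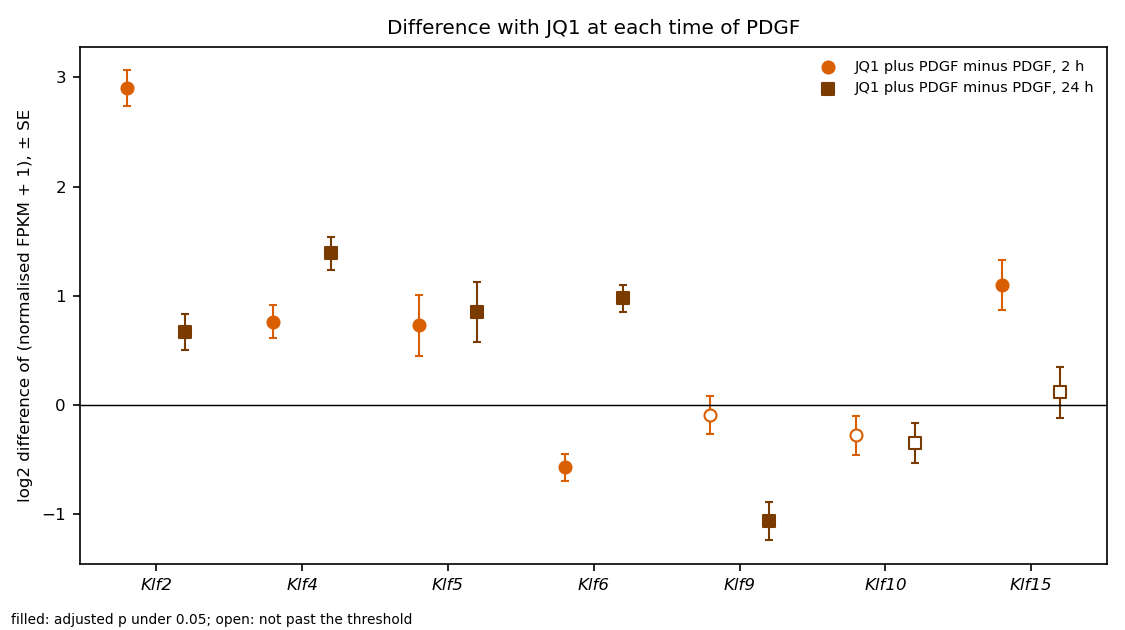
Log2 differences of (normalised FPKM + 1) with bars of 1 SE for JQ1 plus PDGF against PDGF at 2 h and 24 h, for the 7 genes, filled where the limma adjusted p is under 0.05. Klf2 is at 2.90 at 2 h and 0.67 at 24 h, Klf6 is below 0 at 2 h and above it at 24 h, and Klf9 is near 0 at 2 h and at -1.06 at 24 h.

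The effect of JQ1 differed between the times for 5 of the 7 genes, by the test of the difference itself (the effect at 24 h minus that at 2 h), against 22.3% of all tested genes, with 4.82% called in the positive and 17.5% in the negative direction. Klf6 changed sign, from lower to higher with JQ1, by 1.55 ± 0.18 (limma adjusted p = 1.57e-05). The effect on Klf2 was smaller at 24 h by -2.23 ± 0.23 (limma adjusted p = 7.49e-06), and that on Klf9 was more negative by -0.97 ± 0.25 (limma adjusted p = 0.0111). Klf4 (0.62 ± 0.21; limma adjusted p = 0.0429) and Klf15 (-0.98 ± 0.33; limma adjusted p = 0.0427) passed narrowly.

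The calls of Klf4 and Klf15 on this difference were each lost without any 1 of 10 libraries. For Klf4 these were all 6 JQ1 libraries, PDGF 2 h replicates 0 and 2 and PDGF 24 h replicates 1 and 2 (limma adjusted p 0.0501 to 0.108, over all 21 alternatives 0.00534 to 0.108). For Klf15 they were both unstimulated libraries, PDGF 2 h replicates 0 and 2, PDGF 24 h replicates 0 and 1, and JQ1 plus PDGF replicates 1 and 2 at each time (limma adjusted p 0.0523 to 0.104, over all 21 alternatives 0.00516 to 0.104). Klf2, Klf6 and Klf9 held their calls in all 21 alternatives. Klf5 (0.12) and Klf10 (-0.07) did not pass the test.

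Set against unstimulated cells, JQ1 plus PDGF left 6 of the 7 genes higher at 2 h and Klf15 lower, so all 7 were called, against 46.9% of all tested genes, 13.2% higher and 33.7% lower. The differences were 2.61 for Klf4, 2.23 for Klf2, 1.80 for Klf10, 1.72 for Klf5, 1.03 for Klf6, 0.83 for Klf9 and -2.31 for Klf15 on the log2 scale. Klf2 was thus above unstimulated cells with JQ1 plus PDGF and below them with PDGF alone. At 24 h Klf4 (1.83), Klf10 (1.18), Klf6 (1.15), Klf5 (1.06) and Klf2 (1.05) were higher and Klf15 (-1.17) and Klf9 (-0.63) lower, so again all 7 were called, against 41.0% of all genes, 17.6% higher and 23.4% lower. Ranges did not overlap for any of the 7 at either time, against 67.7% of all genes at 2 h and 65.0% at 24 h. The Klf9 call at 2 h was lost without unstimulated replicate 0 (limma adjusted p = 0.0605), and at 24 h without unstimulated replicate 1 or JQ1 plus PDGF 24 h replicate 1 (0.0686 to 0.205). The adjusted p of Klf9 ran between 9.11e-05 and 0.0605 at 2 h and between 0.012 and 0.205 at 24 h over 21 alternatives. The Klf5 call at 24 h was lost without either unstimulated library (limma adjusted p 0.0623 and 0.0674, with a range of 0.000385 to 0.0674 over 21 alternatives).

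The order of the 7 levels changed between groups, although Klf6 led in each. FPKM are scaled per length, so levels are set side by side here, but only as a rough order. The normalisation, whose method is not stated, moved low values unequally. With PDGF at 2 h, Klf5 went from 0.319 to 0.946 in replicate 1 and from 3.51 to 2.99 in replicate 0. In unstimulated cells the order by mean normalised FPKM was Klf6 (30.7), Klf15 (13.9), Klf9 (10.5), Klf4 (8.68), Klf2 (7.02), Klf10 (4.70) and Klf5 (0.368), and the ranges of Klf15 and Klf9, and of Klf9 and Klf4, overlapped. With PDGF at 2 h it was Klf6 (94.7), Klf4 (33.8), Klf10 (22.6), Klf9 (20.7), Klf2 (4.09), Klf5 (1.85) and Klf15 (0.389), where Klf10 and Klf9 overlapped. Klf15 thus stood second of the 7 before PDGF and last at 2 h.

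With JQ1 plus PDGF at 2 h, Klf4 (57.9) overlapped the leading Klf6 (63.2), and Klf2 (37.2) came next, above Klf9 (19.3) and Klf10 (18.5), which overlapped. Klf5 (3.60) and Klf15 (2.01) were the lowest of the 7. With JQ1 plus PDGF at 24 h the order was Klf6 (69.2), Klf4 (33.3), Klf2 (15.6), Klf10 (11.8), Klf9 (6.39), Klf15 (5.63) and Klf5 (1.85), where Klf9 and Klf15 overlapped. With PDGF at 24 h it was Klf6 (34.6), Klf10 (15.2), Klf9 (14.4), Klf4 (12.2), Klf2 (9.49), Klf15 (5.20) and Klf5 (0.602), and the neighbours from Klf10 to Klf2 overlapped. The sum of the 7 was 182.0 to 218.0 normalised FPKM with JQ1 plus PDGF at 2 h and 168 to 195.0 with PDGF at 2 h, 131 to 156.0 with JQ1 plus PDGF at 24 h and 90.4 to 93.4 with PDGF at 24 h, against 72.6 to 79.1 in unstimulated cells.

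Patterns over the 14 libraries were set against each other by Pearson correlation of log2(normalised FPKM + 1), given as a description since the libraries share 5 groups. Among the 7 genes, Klf4 and Klf5 were the most alike (r = 0.93, n = 14), and Klf10 and Klf15 the most opposed (r = -0.86). Klf2 had an r of -0.01 with Klf6 and 0.13 with Klf15. Among all tested genes, Zfp36, which encodes an mRNA decay factor, was the most like Klf4 (r = 0.99) and the second most like Klf5 (0.92). The gene most like Klf6 was Ppp1r15a (0.97), a stress-induced phosphatase subunit, and Areg, an EGF receptor ligand, followed at 0.96. The most like Klf10 were Twist1, Pkp1 and Pdgfa, each at 0.96, and Pdgfa encodes the PDGF A chain. Klf9 was most like Abcb1b (0.99), a drug efflux transporter gene, Klf2 most like the histone gene Hist3h2a (0.97), and Klf15 most like Dennd6a (0.95).

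The other Klf and Sp genes were described beside the 7, with no test of a difference between the lists. Of 19 further Klf and Sp genes listed, 16 had a row and 10 passed the filter, while Klf8, Klf17 and Sp3 were not analysed here. At 2 h of PDGF 1 of these 10 rose and 4 fell, against 17.7% and 12.7% of all tested genes. At 24 h 1 rose, Klf12, against 37.7% of all genes, and its call was lost on the median-centred scale (1.36 and 0.96; limma adjusted p = 0.00283 and 0.0559). With JQ1 they were 1 higher and 3 lower at 2 h, and 1 higher and 5 lower at 24 h (median-centred, 3 and 2 at each time), against 7.24% of all genes higher and 34.0% lower at 2 h and 4.61% and 48.5% at 24 h. The median difference of the 10 was -0.33 at 2 h and -0.52 at 24 h, near the -0.29 and -0.48 of all tested genes.

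Klf16 was the member of that list with the largest JQ1 effect at 24 h. It measured 121.7, 97.6 and 102 normalised FPKM with JQ1 plus PDGF at 24 h, against 21.9, 21.5 and 25.0 with PDGF. That difference was 2.18 ± 0.15 (limma adjusted p = 1.12e-08). At 2 h Klf16 was lower with JQ1, at 22.5, 26.4 and 28.1 against 36.3, 54.1 and 50.4 with PDGF (difference -0.83 ± 0.15; limma adjusted p = 4.54e-04). Klf16 and Klf6 thus share the order of their groups within each time, lower with JQ1 at 2 h and higher at 24 h, and the test of the change between the times gave 3.01 ± 0.21 for Klf16 (limma adjusted p = 1.15e-07). Klf7 went the other way at 24 h, at 2.19, 0.672 and 1.38 with JQ1 plus PDGF against 9.31, 8.40 and 7.99 with PDGF (difference -2.04 ± 0.24; limma adjusted p = 4.00e-06). Klf11, a paralogue of Klf10 by known homology, fell at 2 h of PDGF by 1.60 on the log2 scale (SE 0.31; limma adjusted p = 0.00127), where Klf10 rose.

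**Figure D4:**
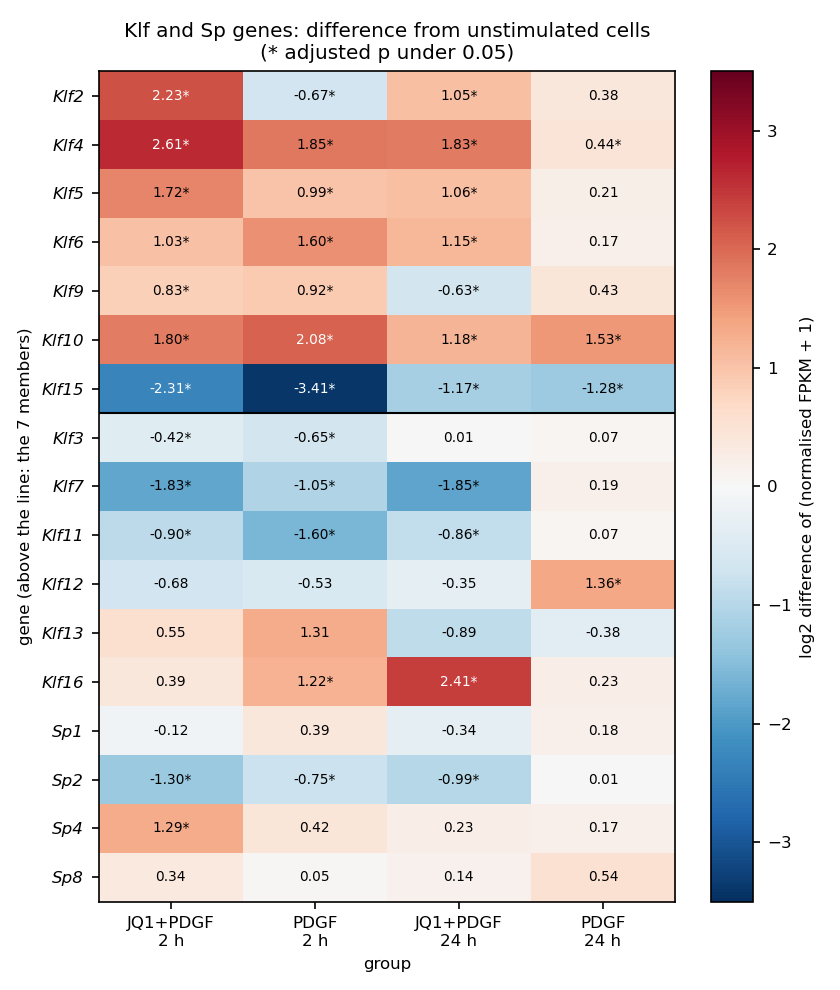
Log2 differences of (normalised FPKM + 1) from unstimulated cells for the 7 genes (above the line) and the 10 other tested Klf and Sp genes, in 4 groups, with an asterisk at a limma adjusted p under 0.05. Klf15 is the most negative with PDGF at 2 h (-3.41), and Klf16 is at 2.41 with JQ1 plus PDGF at 24 h.

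Genes that act upstream of the family or on its turnover were described as a list of 20, of which 17 were tested and Mef2c and Fbxw7 were not analysed here. At 2 h of PDGF 4 rose and 2 fell (median-centred, 4 and 6), against 17.7% and 12.7% of all genes. The transcription factor genes Mef2a (1.22 ± 0.19; limma adjusted p = 1.98e-04) and Srf, the factor that binds the CArG box (0.80 ± 0.16; limma adjusted p = 0.00122), were among those that rose. With JQ1 at 24 h 0 of the 17 were higher and 15 lower by limma (0 and 15 at an unadjusted p under 0.05; median-centred, 1 and 8), against 48.5% of all genes called lower. Pdgfra, a PDGF receptor gene that is also among the fibroblast markers, measured 1.52, 1.31 and 1.16 normalised FPKM with JQ1 plus PDGF at 24 h, against 21.8, 25.0 and 25.3 with PDGF (difference -3.43 ± 0.20; limma adjusted p = 2.26e-09). Pdgfrb, the receptor gene known to predominate in smooth muscle, measured 161, 119 and 132, against 550, 524 and 534 with PDGF (difference -1.97 ± 0.13; limma adjusted p = 6.87e-09). Both PDGF receptor genes were lower at 24 h on the median-centred scale too, by -2.92 and -1.46.

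Cofactors through which these factors are known to activate or repress made a list of 14, of which 12 were tested and Ep300 and Kat2b were not analysed here. The corepressor scaffold gene Sin3a was lower at 2 h of PDGF, by a log2 difference of -0.92 ± 0.22 (limma adjusted p = 0.0056). With JQ1 at 24 h 0 of the 12 were higher and 6 lower by limma (0 and 8 at an unadjusted p under 0.05), against 4.61% and 48.5% of all genes, while the median-centred scale gave 2 and 1. The median of the list was -0.35 with JQ1 at 24 h and 0.16 on the median-centred scale, so its direction depended on the scale.

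The list of 9 contractile genes holds genes chosen as linked to KLF4 and KLF5. At 2 h of PDGF, when Klf4 was at its highest in the PDGF course, 1 of the 9 was called, Cnn1, which rose by 1.07 ± 0.19 (limma adjusted p = 6.29e-04) (median-centred, 1 higher and 2 lower), against 30.4% of all genes called in either direction. At 24 h of PDGF 8 of the 9 fell, and with JQ1 at 24 h 8 of the 9 were lower than with PDGF, against 4.85% and 48.5% of all genes called lower. Acta2, smooth muscle actin, measured 109.9, 69.3 and 84.6 normalised FPKM with JQ1 plus PDGF at 24 h, against 966, 1019 and 850 with PDGF (difference -3.43 ± 0.16; limma adjusted p = 1.73e-10). Klf4 was 2.72-fold higher in those same JQ1 libraries. Whether Klf4 acted on any of these genes was not tested. With JQ1 at 2 h 1 of the 9 was higher and 4 lower than with PDGF (median-centred, 4 and 3), against 7.24% and 34.0% of all genes. Tagln measured 6352 to 6807 normalised FPKM with JQ1 plus PDGF at 2 h, against 4103 to 5568 with PDGF. Myocd, the coactivator of serum response factor, measured 0.470, 0.768 and 0.419 with JQ1 plus PDGF at 2 h, against 3.08, 6.63 and 3.28 with PDGF (difference -1.73 ± 0.27; limma adjusted p = 1.36e-04).

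Genes reported elsewhere as targets of Krüppel-like factors made a list of 20, of which 16 were tested and Trp53 was not analysed here. At 2 h of PDGF 7 rose and 2 fell, and with JQ1 3 were higher and 9 lower at 2 h, and 2 higher and 11 lower at 24 h. Over all tested genes 17.7% rose and 12.7% fell at 2 h of PDGF, and with JQ1 7.24% were higher and 34.0% lower at 2 h and 4.61% and 48.5% at 24 h. On the median-centred scale the JQ1 counts were 4 and 6 at 2 h and 4 and 9 at 24 h. Ccl2, a monocyte chemokine gene, measured 39.9, 21.4 and 31.3 normalised FPKM with JQ1 plus PDGF at 2 h, against 205, 192 and 195 with PDGF (difference -2.68 ± 0.18; limma adjusted p = 6.28e-08). Eng, the TGF-beta coreceptor endoglin reported as a target of KLF6, measured 23.6, 17.5 and 22.0 with JQ1 plus PDGF at 24 h, against 141, 117 and 126 with PDGF (difference -2.56 ± 0.15; limma adjusted p = 2.38e-09). Klf6 itself was higher in those JQ1 libraries. Egr1, of the same list, was also higher there, at 140 to 184 normalised FPKM against 42.6 to 57.1 with PDGF. Whether any listed gene followed a Klf gene was not tested. Bcat2, the amino acid enzyme gene linked to KLF15, was lower with JQ1 at 24 h by -2.34 ± 0.17 (limma adjusted p = 2.68e-08).

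The list of 10 genes that glucocorticoids induce, as they do Klf9 and Klf15, had 9 tested members. At 2 h of PDGF 6 rose and 0 fell by limma (also 6 and 0 at an unadjusted p under 0.05), or 6 and 1 with median centring, against 17.7% and 12.7% of all genes, while Klf9 rose and Klf15 fell. Sgk1, a kinase gene, rose by 4.80 ± 0.16 (limma adjusted p = 1.05e-11). With JQ1 at 2 h 1 was higher and 4 lower (median-centred, 1 and 2), and at 24 h 2 were higher and 3 lower (5 and 2), against 7.24% and 34.0% of all genes at 2 h and 4.61% and 48.5% at 24 h. Fkbp5, a cochaperone gene of the glucocorticoid receptor, measured 25.1, 33.8 and 32.0 normalised FPKM with JQ1 plus PDGF at 2 h, against 12.3, 13.2 and 15.5 with PDGF (difference 1.09 ± 0.17; limma adjusted p = 1.63e-04).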

How the data were processed

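Polyadenylated RNA of 14 libraries was read as single ends after a stranded kit, per the labels' protocols. The authors deposited normalised FPKM and unnormalised FPKM, 1 column a library. Per the submitters' processing notes, HISAT and Cufflinks 2.0.0 were used on build rn6. The method of normalisation is not stated in the labels, and spike-ins (92 rows) were kept out of the tests. Column digits do not match the letters of the titles, so libraries carry only their group, and 0 columns had no group. Depth is unknown, so no counting interval is given.

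Genes at 1 normalised FPKM or more in 2 libraries or more (10133) were tested with limma 3.58.1 (R 4.3.3) on log2(normalised FPKM + 1), in 1 model of 5 groups with 9 residual degrees of freedom and a mean trend, adjusted by Benjamini-Hochberg over all of them. The code was tested on simulated data. Alternatives were a pseudocount of 0.1, no filter, unnormalised and median-centred values (size factors 1.015 to 1.024, 9980 genes), the compared groups alone, no trend, and left-out libraries. From each list, up to 3 called genes a comparison with the largest differences were eligible for naming, by preference with ranges apart, and not all of these are printed. The 3 genes most like each member were found by correlation. Members and lists were chosen with earlier results of these data known.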

Additional observations from a re-analysis of the deposited data

Results flagged for a closer look

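The effect of JQ1 at 24 h differed from its effect at 2 h for 5 genes, by the test of the difference between the times (log2 scale, 24 h minus 2 h, limma). The values were -2.23 for Klf2 (higher with JQ1 in 3 of 3 libraries at each time, less so at 24 h), 0.62 for Klf4, 1.55 for Klf6 (lower with JQ1 in 3 of 3 libraries at 2 h, higher in 3 of 3 at 24 h), -0.97 for Klf9 and -0.98 for Klf15.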

How the results depend on the processing

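No paired analysis was possible because the columns end in digits that match no letter of the sample titles. Over 21 alternatives, 1073 values of the 7 genes kept their direction and side of the threshold. With the sign kept, 79 lost a call and 4 gained one, and 19 changed sign, called or not. Among the sign changes, Klf6 at 24 h of PDGF against unstimulated cells was called lower on 2 scales. These were the median-centred scale (limma adjusted p = 0.0458) and unnormalised FPKM (limma adjusted p = 0.0472). Of the 46 calls of these genes over 8 comparisons, 32 held under every alternative. The number called for PDGF at 2 h ran between 4 and 7 with 1 library left out, against 7 in all libraries, and was 4 without unstimulated replicate 0. For the change of the JQ1 effect between times it was 5, then 3 without the filter on low values, and between 3 and 5 with 1 library left out. Sign changes on the median-centred scale and on unnormalised FPKM were, at 24 h of PDGF against unstimulated cells, -0.0225 on both for Klf2 and -0.272 on both for Klf6. For JQ1 at 2 h they were 0.219 and 0.218 for Klf9, and 0.0358 and 0.0339 for Klf10. For Klf10 they were 0.159 and 0.156 with JQ1 at 24 h, and 0.124 and 0.122 for the change between times. With 1 library left out, the Klf15 effect of JQ1 at 24 h ran between -0.0962 and 0.254, and the change between times between -0.153 and 0.365 for Klf5 and between -0.206 and 0.0231 for Klf10. The cause of these changes was not tested. Over all tested genes, calls for PDGF at 2 h were 3078, but 1788 in a fit of the compared groups alone and 1606 and 1942 without unstimulated replicate 0 or 1. For PDGF at 24 h they were 4314, but 2819 on the median-centred scale, 2826 on unnormalised FPKM and 2487 without unstimulated replicate 0. Low values of Klf5 and of Klf15 at 2 h carry no interval, since depth is unknown.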
